A study of Mus musculus with 2 samples.

Results

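Small nucleolar RNAs and their relatives of the Cajal body were followed in sorted cells of the mouse embryonic forelimb. The members were all rows of the deposited tables whose symbol begins with Snord, Snora or Scarna and a number, each transcript row kept on its own. There were 123 such rows of 28107 rows in all: 77 Snord rows (box C/D), 37 Snora rows (box H/ACA) and 9 Scarna rows (Cajal body). The cells came from embryos (E13.5, mixed strain background) that carry ScxGFP, a green fluorescent reporter under regulatory sequence of *Scx*, the gene of the tendon transcription factor scleraxis. Cells with and without the fluorescence were separated by cell sorting, and each population gave 1 library from 6 pooled forelimbs (3 pairs). The reporter is shared by both populations, called GFP-positive and GFP-negative below, or the positive and the negative library. With 1 library in each group there are no replicates, no error and no test, and every difference below describes 2 libraries.

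Box C/D RNAs carry a C box near the 5′ end and a D box near the 3′ end and guide the methylation of ribose in ribosomal RNA. Box H/ACA RNAs fold into hairpins, end in an ACA box and guide the change of uridine to pseudouridine. Small Cajal body RNAs guide the same changes in the RNAs of the spliceosome. In mammals nearly all of them are cut from introns of host genes, many of which encode ribosomal or nucleolar proteins, and a few box C/D RNAs, such as U22 (*Snord22*), act in the cleavage of the ribosomal RNA precursor in place of modifying it.

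The sequences of the box C/D members on which the levels turn are shown first, as the sense strand of the GENCODE M21 models of mouse build GRCm38. Capitals mark TGATGA (a C box) where it lies in the first 20 bases and the last CTGA (the D box) in the last 20 bases. *Snord104* lies at chr11:106500993-106501062 on the plus strand, *Snord19* at chr14:31016206-31016281 on the minus strand in an intron of *Gnl3*, and *Snord37* at chr10:81178950-81179013 on the plus strand in an intron of *Eef2*. *Snord71* lies at chr8:109839295-109839379 on the plus strand in an intron of *Ap1g1*, *Snord2* at chr16:23108953-23109021 on the plus strand in an intron of *Eif4a2*, and *Snord22* at chr19:8725866-8725991 on the plus strand in an exon of a *Snhg1* transcript.
Snord104: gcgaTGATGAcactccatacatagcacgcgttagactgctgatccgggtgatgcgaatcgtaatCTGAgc
Snord19: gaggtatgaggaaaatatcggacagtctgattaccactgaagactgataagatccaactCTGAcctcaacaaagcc
Snord37: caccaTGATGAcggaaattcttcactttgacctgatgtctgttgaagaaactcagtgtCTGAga
Snord71: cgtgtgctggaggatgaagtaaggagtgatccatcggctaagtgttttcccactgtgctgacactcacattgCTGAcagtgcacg
Snord2: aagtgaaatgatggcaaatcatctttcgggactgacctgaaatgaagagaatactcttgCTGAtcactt
Snord22: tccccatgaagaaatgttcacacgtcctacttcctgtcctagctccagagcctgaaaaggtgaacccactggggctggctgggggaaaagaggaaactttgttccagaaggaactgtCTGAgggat

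The box H/ACA and Cajal body members chosen for display are *Snora3*, an abundant box H/ACA row, *Snora30*, and the pair *Scarna3a* and *Scarna3b*. *Snora30* differed most among rows well above the lowest level of like length in both libraries, a measure defined below. Capitals mark ACA in the last 8 bases. *Snora3* lies at chr7:109520120-109520251 on the plus strand in an intron of *Rpl27a*, and *Snora30* at chr7:127527874-127528003 on the plus strand in an intron of the predicted gene *Gm42715*. *Scarna3a* lies at chr1:159340283-159340422 on the plus strand in an intron of *Cop1*, and *Scarna3b* at chr12:80391613-80391751 on the minus strand in an intron of *Dcaf5*. The *Scarna3a* and *Scarna3b* sequences were identical in 120 of 140 aligned columns (85.7%).
Snora3: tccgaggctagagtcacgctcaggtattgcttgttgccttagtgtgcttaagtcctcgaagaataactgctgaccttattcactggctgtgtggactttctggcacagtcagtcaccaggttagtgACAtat
Snora30: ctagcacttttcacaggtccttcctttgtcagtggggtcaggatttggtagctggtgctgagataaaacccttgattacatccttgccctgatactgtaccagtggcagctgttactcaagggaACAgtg
Scarna3a: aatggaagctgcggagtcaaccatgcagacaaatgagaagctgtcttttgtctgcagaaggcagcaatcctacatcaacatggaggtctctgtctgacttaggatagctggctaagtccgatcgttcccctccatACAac
Scarna3b: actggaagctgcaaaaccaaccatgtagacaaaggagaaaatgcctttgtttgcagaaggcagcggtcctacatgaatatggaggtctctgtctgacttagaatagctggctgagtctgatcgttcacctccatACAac

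The boxes followed the symbol classes. CTGA was found in the last 20 bases of 65 of 67 Snord sequences (97.0%), 4 of 36 Snora and 5 of 9 Scarna sequences, against 9.24% of all 141767 annotated transcripts. TGATGA stood in the first 20 bases of 43 Snord sequences (64.2%), 0 Snora and 4 Scarna sequences, against 0.700% of all transcripts. ACA stood in the last 8 bases of 34 Snora sequences (94.4%), 6 Snord and 4 Scarna sequences, against 11.5% of all transcripts. Only the sense strand was searched, and CTGA and TGATGA, which can share letters, were searched in separate windows. A match is a run of letters, not a shown protein binding site. Of 112 symbols with a GENCODE model, 99 lay in an intron of a gene on the same strand, 8 in an exon and 5 in no gene on that strand.

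The deposited rows are mostly shorter than the annotated RNAs. Of 117 rows with a GENCODE length, 100 were listed shorter, 10 equal and 7 longer, and 6 were listed at under 50% of it. The median Snord row was listed with 68 bases and the median Snord model has 80. Snora rows had a median of 118 bases against 132 in the models, and Scarna rows 118 against 140. The shortfall was greatest in *Scarna2*, listed with 61 of 414 bases, and *Scarna10*, listed with 71 of 325. FPKM (fragments normalised to transcript length and mapped fragments) depends on this listed length.

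**Figure D1:**
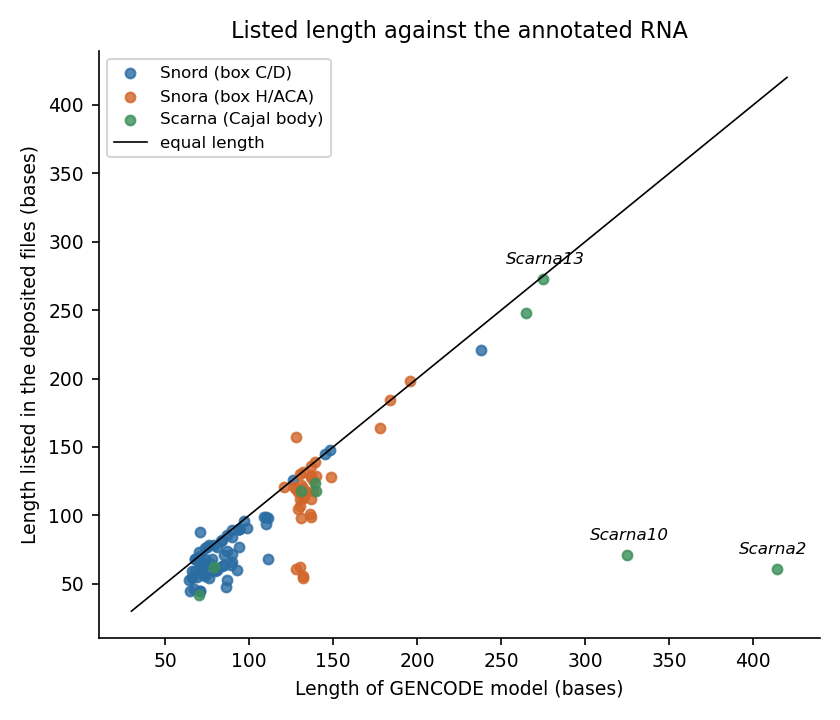
Length of each member row in the deposited files (vertical axis, bases) against the length of its GENCODE model (horizontal axis, bases), 1 point for each of 117 rows, coloured by class. Most points, 100 of them, lie below the line of equal length, with *Scarna2* and *Scarna10* farthest below it.

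As checks of the sort, *Scx* was listed at 134 FPKM in GFP-positive and 1.69 FPKM in GFP-negative cells. Of 5 tendon markers, 4 were at least 2-fold higher in the positive library and 0 lower, and muscle markers were higher in 5 of 5. Markers of erythroid cells, of macrophages and leukocytes, of epidermis, of endothelium and of glia were each lower in 5 of 5. Summed FPKM of the erythroid markers was 155 in GFP-positive and 6413 in GFP-negative cells, and of the muscle markers 145 and 18.5. The part of this difference in cell makeup in the small RNA values was not tested, and in such pools fewer cells of a type and less RNA per cell cannot be told apart.

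Member rows were listed above 0 FPKM equally often in the positive and the negative library, in 72 of 123 (58.5%) in each. In both libraries 59 rows were above 0, 13 only in the positive, 13 only in the negative and 38 in neither. Over all rows of the tables, 78.7% were above 0 in GFP-positive and 79.9% in GFP-negative cells. Of those 28107 rows, 775 were above 0 only in the positive and 1123 only in the negative library. Among the 716 other rows under 300 bases, most of them microRNA precursors, the shares above 0 were 22.2% and 19.7%. Of these 716, 71 were above 0 only in the positive and 53 only in the negative library. An FPKM of at least 1 was reached by 70 member rows in GFP-positive and 68 in GFP-negative cells.

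Box H/ACA rows were above 0 more often than box C/D rows. Of 37 Snora rows, 28 (75.7%) were above 0 in GFP-positive and 29 (78.4%) in GFP-negative cells, and 26 in both. Of 77 Snord rows, 38 (49.4%) were above 0 in GFP-positive and 37 (48.1%) in GFP-negative cells, and only 27 in both. Without the *Snord116* copies it was 38 and 37 of 67. Of 9 Scarna rows, the same 6 were above 0 in each library. The Snord rows listed at 0 in both libraries included all 10 copies of *Snord116*, the box C/D family of the imprinted Prader-Willi region, whose near-identical copies make the assignment of reads uncertain. The gene *Ipw*, whose listed span holds 2 of these copies, was itself listed at 0 FPKM in both libraries. *Scarna2*, *Scarna9* and *Scarna10* were also listed at 0 in both.

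Class and length went together, since box C/D RNAs are the shorter ones. Among members of up to 59 bases, 6 of 22 were above 0 in each library. At 60 to 69 bases it was 15 of 25 in GFP-positive and 14 of 25 in GFP-negative cells, at 70 to 79 bases 7 and 8 of 12, and at 80 to 99 bases 11 and 10 of 24. The last range holds the 10 *Snord116* copies, and without them it was 11 and 10 of 14, near the shares of longer rows. At 100 to 119 bases 13 of 16 were above 0 in each, and from 120 bases on 20 and 21 of 24. Snora rows under 100 bases were above 0 in 3 of 6 in each library, beside 35 and 34 of 73 Snord rows under 100 bases, or of 63 without *Snord116*. Snord rows of 100 bases or more were above 0 in 3 of 4. Within a length range the classes thus showed like shares, on small counts for short Snora and long Snord rows.

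Levels, too, followed length. The lowest value above 1 FPKM among all rows of up to 59 bases was 230 in the positive library (*Snord52*) and 220 in the negative library (*Snord38a*). At 60 to 69 bases the lowest values were 86.9 and 72.1 FPKM, at 70 to 79 bases 37.2 and 24.3, and at 80 to 99 bases 7.71 and 5.22. At 100 to 119 bases they were 2.22 and 2.08 FPKM, and from 120 bases on 1.52 and 1.25. A row of the shortest range was therefore listed either at 0 or at 220 FPKM or more, with nothing between in these libraries. The number of reads behind a row is unknown, because the deposited coverage is FPKM times a constant (2.28 in GFP-positive and 2.39 in GFP-negative cells). In the positive library *Snord19*, listed with 54 bases, stood at 5291 FPKM, 2 times the 2646 FPKM of *AF357355*, another small nucleolar RNA row of 54 bases, which was listed at 0 in the negative library.

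**Figure D2:**
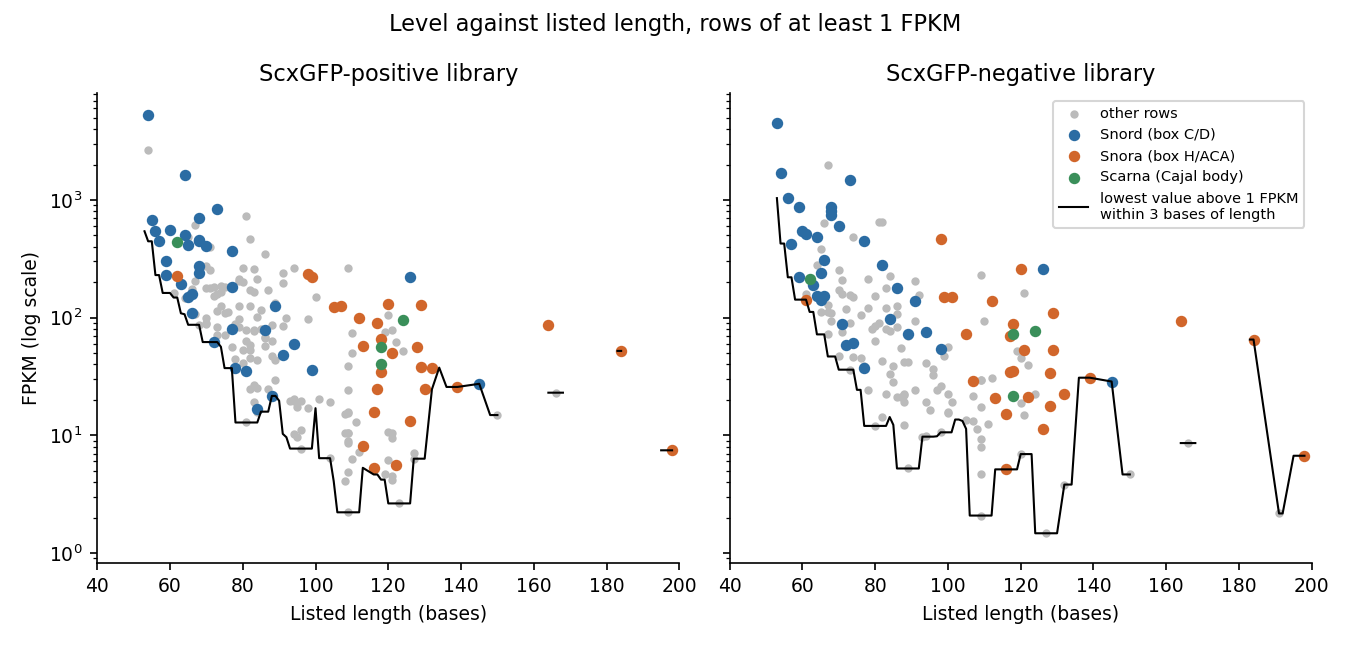
FPKM (log scale) against listed length in bases for rows of at least 1 FPKM, with the positive library on the left and the negative library on the right. Coloured points are members by class, grey points are other rows, and the black line, the lowest value above 1 FPKM within 3 bases of each length, falls from over 200 FPKM at the shortest lengths to under 10 near 110 bases, and rows over 200 bases (*Snord17*, *Scarna6* and *Scarna13* among the members) are off the axis.

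To set a row against its like, its FPKM was divided by the lowest value above 1 FPKM among all rows within 3 bases of its length in the same library, and a row at 5 times that value or more is called well above the lowest level. This measure was chosen after the values had been seen. Below, the lowest level of a length means this value within 3 bases. Where values fall steeply with length, as among the shortest rows, it can come from a longer row. By this measure, 42 member rows were well above the lowest level in at least 1 library and 25 in both: 8 Snord, 15 Snora and 2 Scarna rows. For 8 measured rows, among them *Snora81*, *Snord17*, *Scarna6* and *Scarna13*, fewer than 3 rows of like length were at hand, and most of these are themselves the lowest, so the measure says little of them.

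Summed over members, the values came to 18589 FPKM in the positive library (11.5% of its summed FPKM) and 20485 FPKM in the negative library (9.29%). The positive sum was 90.7% of the negative, but 124% of it after both libraries were rescaled to equal sums, so its direction depends on the scaling. Snord rows summed to 15967 and 17907 FPKM, Snora rows to 1984 and 2190, and Scarna rows to 638 and 388. A few rows weigh heavily: *Snord19* alone was 28.5% of the members' sum in GFP-positive and *Snord37* 22.1% in GFP-negative cells. Rows of up to 59 bases, 6 of them above 0 in each library, gave 7494 FPKM in GFP-positive and 8777 in GFP-negative cells. Since listed values rise as rows get shorter, a share of summed FPKM is not a share of RNA.

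Of 82 measured rows (1 FPKM or more in any library), 20 were at least 2-fold higher and 20 at least 2-fold lower in the positive library on the log2(FPKM + 1) scale, which understates the change of low values, and 42 lay within 2-fold. Over all 13786 measured rows, 5.35% were higher and 11.9% lower (17.3% in either direction), with a median log2 ratio of -0.26. Among the other measured rows under 300 bases, 48.7% were higher and 31% lower (79.7% in either direction). By class, 14 of 46 Snord rows were higher and 15 lower, 5 of 30 Snora rows higher and 4 lower, and 1 of 6 Scarna rows higher and 1 lower. After rescaling to equal sums, to equal medians or to equal upper quartiles, 26 member rows were higher and 18 lower. Over all rows these scalings moved the median log2 ratio from -0.26 to 0.10, 0.00 and -0.02, and the share of higher rows among those past 2-fold from 31.0% to 50.2%, 44.2% and 42.9%.

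The 40 member rows past 2-fold were mostly short, and most were listed at or near 0 on the other side. Under 100 bases 32 of 48 measured rows (66.7%) were past 2-fold, and at 100 bases or more 8 of 34 (23.5%). The other rows under 300 bases did not show such a drop, with 105 of 129 (81.4%) and 44 of 58 (75.9%) past 2-fold in the same length ranges. Those longer other rows also lay lower. Their median value above 0 in the positive library was 10.4 FPKM at 100 to 119 bases, against 56.1 for members. From 120 bases on it was 9.44 against 32.5 FPKM, and the part of level in this contrast was not tested. Only 15 of the 40 member rows past 2-fold, 7 higher and 8 lower, were above 0 in both libraries. Of the 40 measured rows not well above the lowest level of their length in either library, 26 (65.0%) were past 2-fold, against 14 of the 42 well above it in either (33.3%), 5 higher and 9 lower. A row can enter the latter set through the library where it is high alone, and the lowest level differs between the libraries, so these counts are partly set by the choice and describe it only. Of the 25 rows well above it in both, a choice that leaves out any row at 0 in 1 library, 24 lay within 2-fold and 1, *Snora30*, was higher, with a median log2 ratio of -0.27. After any of the 3 rescalings 4 of these 25 were higher and 0 lower. The median log2 ratio of the 59 rows above 0 in both libraries was -0.04, with -0.27 for 27 Snord, 0.02 for 26 Snora and 0.29 for 6 Scarna rows.

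**Figure D3:**
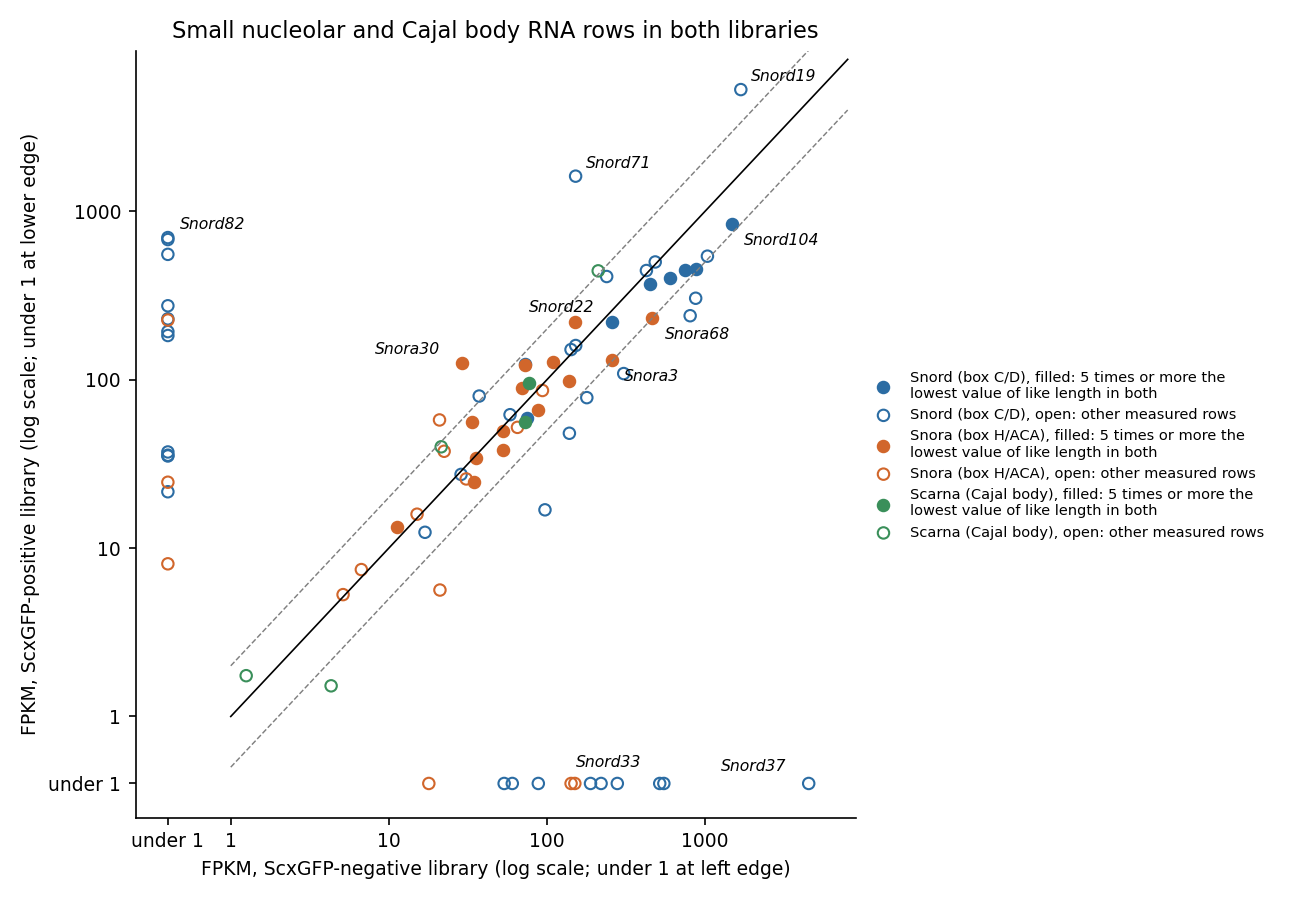
FPKM of each measured member row in the positive (vertical, log scale) and negative library (horizontal, log scale), coloured by class, with values under 1 set at the edges, the solid line at equal level and dashed lines at 2-fold. Filled points, the 25 rows well above the lowest level of their length in both libraries, stay between the dashed lines except *Snora30*, and the points at the edges are rows under 1 FPKM in 1 library, such as *Snord82*, *Snord37* and *Snord33*.

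Among box C/D RNAs the highest mean level was that of *Snord19*, at 5291 FPKM in GFP-positive and 1687 FPKM in GFP-negative cells (log2 ratio 1.65). It was well above the lowest level of its length in the positive library only, at 11.9 times it, against 3.96 times in the negative. *Snord37*, from an intron of the elongation factor gene *Eef2*, was listed at 0 in GFP-positive and at 4534 FPKM in GFP-negative cells, 4.37 times the lowest level within 3 bases of its length. That level is set by *Snord99*, of 56 bases, while *Snord70*, the other row of 53 bases, was listed at 0. The largest values among members thus belong to rows of 53 and 54 bases, where the lowest level within 3 bases is itself over 200 FPKM. *Snord104*, of 73 bases, was well above the lowest level of its length in both libraries, with 841 and 1474 FPKM, at 13.6 and 40.8 times it, and a log2 ratio of -0.81.

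*Snord71*, whose sequence is shown above, had the highest ratio of all members at 1 FPKM or more in both libraries. It stood at 1619 FPKM in GFP-positive and 152 FPKM in GFP-negative cells, a log2 ratio of 3.41, at 15.2 and 2.11 times the lowest level of its length. Its row, at chr8:112363212-112363275 of build mm9, lies in the span of *Ap1g1*, an adaptor protein gene of clathrin coats, which had 9.16 and 12.4 FPKM and so did not share this ratio. The rest of the 10 highest rows were lower in the positive library. *Snord99* stood at 542 and 1037 FPKM, *Snord95* at 453 and 872, *Snord100* at 449 and 749, and *Snord4a* at 404 and 603, all within 2-fold. *Snord69* (305 and 874 FPKM, log2 ratio -1.52) and *Snord2* (240 and 806 FPKM, log2 ratio -1.74) were past it.

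Other box C/D rows above 0 in both libraries and past 2-fold lay lower on the scale. *Snord1b* was higher in the positive library, at 80.03 against 37.3 FPKM (log2 ratio 1.08), 2.15 and 3.10 times the lowest level of its length. Its sequence is 97.4% identical to that of *Snord1c*, listed at 37.2 and 0 FPKM, so reads of the pair may be shared between them. *Snord88c* was the lowest by ratio, at 16.9 and 97.3 FPKM (log2 ratio -2.46). Its near copy *Snord88a*, 94.4% identical, stood at 62.01 and 58.5 FPKM, so this pair is uncertain in the same way. *Snord16a* had 48.1 and 139 FPKM (log2 ratio -1.51), *Snord34* 109 and 306 (-1.48) and *Snord35b* 78.3 and 179 (-1.18). *Snord85*, at 410 and 239 FPKM (log2 ratio 0.78), was within 2-fold as deposited.

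The box C/D and H/ACA rows seen in only 1 library cannot be given a fold. Listed at 0 in the positive library, after *Snord37*, were *Snord72* at 550 FPKM in the negative, *Snord45c* at 517 (status LOWDATA), *Snord33* at 279, *Snord38a* at 220 and *Snord11* at 189. Listed at 0 in the negative library were *Snord82* at 699 FPKM in the positive, *Snord58b* at 680, *Snord91a* at 556, *Snord53* at 275, *Snord52* at 230 and the box H/ACA row *Snora61* at 226. Of these, only *Snord33* (23.2 times) and *Snord82* (8.04 times) were well above the lowest level of their length where seen. Of the 13 rows above 0 only in the positive library 1 was so, and of the 13 only in the negative library 4: *Snord33*, *Snord67*, *Snora5c* and *Snora62*.

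*Snord22* (U22) stood farther above the lowest level of its length than any other member row in both libraries. It stood at 220 FPKM in GFP-positive and 258 FPKM in GFP-negative cells, 83.3 and 176 times the lowest level of its length, with a log2 ratio of -0.23, close to the median of all rows. These multiples rest on 1 low microRNA row each, *Mir669g* at 2.64 FPKM in the positive and *Mir669k* at 1.47 in the negative library. The *Snord22* row of 126 bases lies in an exon of *Snhg1*, a host gene with 72.9 and 119 FPKM, so reads of the spliced host transcript and of the small RNA cannot be told apart there. The same limit holds for other members whose GENCODE model lies in an exon. Among them are *Snord99* and *Snora61* (*Snhg12*), *Snord45c* (*Rabggtb*) and *Snord88a* (*2410002F23Rik*). U3 (*Snord3a*), *Snord118*, *Snord13* and *Snord14*, which also act in precursor processing, and *Snora73a* and *Snora73b* were not analysed here.

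Among box H/ACA RNAs, *Snora30* stood apart as deposited from the other rows well above the lowest level in both libraries. It had 126 FPKM in GFP-positive and 29.1 FPKM in GFP-negative cells, a log2 ratio of 2.08, at 57.1 and 14.0 times the lowest level within 3 bases of its 107. Here too the multiples rest on 1 low microRNA row each, *Mir669a-3* at 2.22 FPKM in the positive and *Mir669c* at 2.08 in the negative library. The *Snora30* row, at chr7:134671411-134671517 of mm9, lay in no other gene span of the tables. *Snora41*, in the span of the elongation factor gene *Eef1b2*, was also higher, at 57.7 and 20.9 FPKM (log2 ratio 1.42), 10.9 and 4.08 times the lowest level. *Snora69*, in the span of *Rpl39*, was lower, at 5.64 and 21.1 FPKM (log2 ratio -1.73), but only 2.14 and 3.04 times it. *Snora24* stood at 24.6 FPKM in the positive library and at nearly 0 in the other, with status LOWDATA (in Cufflinks, a locus too complex or too shallowly covered to estimate) in both. The most abundant box H/ACA row, *Snora68*, had 233 and 464 FPKM (log2 ratio -0.99), and *Snora3*, in the span of *Rpl27a*, had 130 and 258 FPKM (log2 ratio -0.98), both just within 2-fold. *Snora31* with 98.9 and 137 FPKM, *Snora52* with 220 and 151 and *Snora70* with 128 and 110 were within it too. Of the 15 Snora rows well above the lowest level in both libraries, 14 were within 2-fold.

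The 6 Cajal body rows above 0 spanned 1.25 to 444 FPKM. *Scarna17* was highest and past 2-fold, at 444 FPKM in GFP-positive and 211 FPKM in GFP-negative cells (log2 ratio 1.07), but its row has 62 bases and stood at only 2.99 and 1.89 times the lowest level. The pair *Scarna3a* and *Scarna3b*, whose sequences are shown above, was well above it in both libraries. *Scarna3a* had 56.1 and 72.3 FPKM (log2 ratio -0.36) and *Scarna3b* 95.2 and 77.1 FPKM (log2 ratio 0.30), both within 2-fold and of opposite sign. *Scarna8* had 39.98 and 21.5 FPKM (log2 ratio 0.87). The long rows *Scarna13* (1.52 and 4.31 FPKM, log2 ratio -1.08) and *Scarna6* (1.75 and 1.25 FPKM, log2 ratio 0.29) were the lowest of these.

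The host genes were seldom past 2-fold. By the spans listed in the tables, 106 member rows lay within 78 genes, of which 75 were measured. Of these, 0 were at least 2-fold higher in the positive library, 3 lower (*Rpl12*, *Rpl32* and *Rpl39*, of the large ribosomal subunit) and 72 within 2-fold, against 4.03% higher and 9.98% lower over 12096 measured genes. The median log2 ratio of hosts was -0.59, against -0.27 for all genes, and 71 of 75 (94.7%) were below 0, against 73.8% of all genes. The 21 ribosomal protein hosts had a median of -0.75. After rescaling to equal sums the host median was -0.19 with 69.3% below 0, against 0.10 and 41.4% for all genes, with 1 host higher and 0 lower. With equal medians the host counts were the same and 76.0% were below 0, against 49.8% of all genes. Of 78 measured rows with a host, 40 had a ratio within 2-fold of their host's, 24 above and 14 below it. Among the 22 such rows well above the lowest level in both libraries, 18 were within 2-fold of their host's ratio. This choice leaves out any row at 0 in 1 library, and 72 of 75 hosts lay within 2-fold themselves. The count of 18 is thus partly set by the choice and describes it only.

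The level of the host did not separate rows that were seen from rows that were not. Median host FPKM was 20.4 in GFP-positive and 34.6 in GFP-negative cells for 55 rows above 0 in both libraries. For 26 rows above 0 in 1 library it was 21.1 and 34.3 FPKM, and for 25 rows listed at 0 in both it was 25.4 and 31.2 FPKM. Rows of the same host share its transcript and are not independent of each other.

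RNAs of the same host did not always share a direction. In 3 of 11 hosts with several measured rows, rows past 2-fold lay in opposite directions. Among all 82 measured member rows 20 were higher and 20 lower. Whether opposite directions are more or less frequent within hosts was not tested. In *Gnl3*, which encodes nucleostemin and was listed at 10.7 FPKM in GFP-positive and 18.96 FPKM in GFP-negative cells, *Snord19* was higher and *Snord69* lower in the positive library. In *Rpl13a* (79.7 and 119.8 FPKM), *Snord32a* stood at 35.3 and 0 FPKM, and *Snord33* at 0 and 279. Of the remaining rows of that gene, *Snord34* was lower and *Snord35a* stood at 125 and 72.4 FPKM, within 2-fold. In *Wdr43*, a gene of ribosomal RNA processing with 6.07 and 9.997 FPKM, *Snord53* stood at 275 and 0 FPKM and *Snord92* at 0 and 88.3. Of these 8 rows, *Snord35a* alone was well above the lowest level in both libraries.

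**Figure D4:**
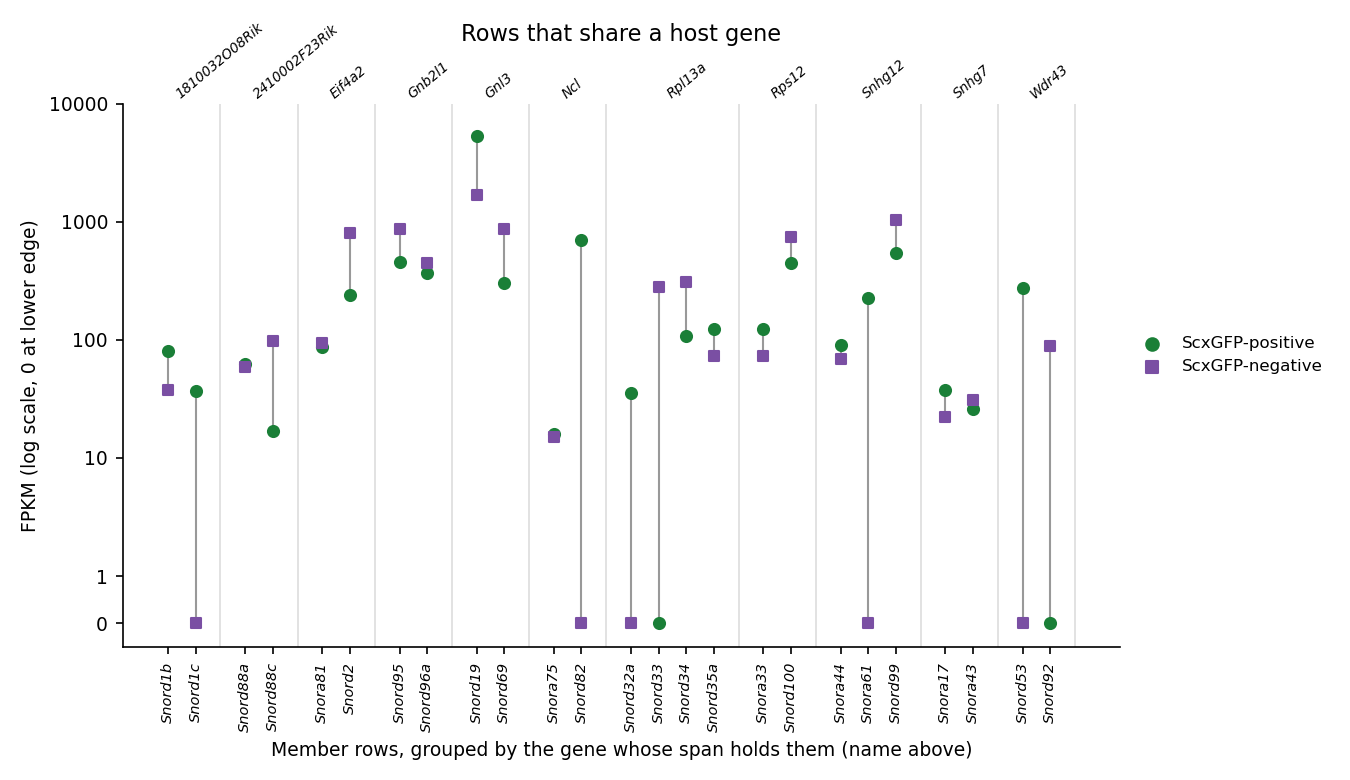
FPKM (log scale, with 0 at the lower edge) of member rows in the 11 hosts that hold several measured rows, with a green circle for the positive and a purple square for the negative library and a line joining them. Lines run in opposite directions within *Gnl3*, *Rpl13a* and *Wdr43*, and rows such as *Snord82*, *Snora61* and *Snord1c* drop to 0 in the negative library.

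Genes of the proteins that bind, build and process these RNAs were lower in the positive library as deposited, most of them within 2-fold. Of 36 measured genes in 5 lists, 0 were at least 2-fold higher, 2 lower and 34 within 2-fold, and 36 of 36 log2 ratios were below 0, against 73.8% of all measured genes, with a median of -0.45. After rescaling to equal sums the median of the lists was -0.08 with 63.9% below 0, against 0.10 and 41.4% for all genes. After rescaling to equal medians it was -0.15 with 69.4% below 0, against 0.00 and 49.8%. That all share a direction thus holds only as deposited or with another pseudocount. The list of box C/D particle proteins had a median log2 ratio of -0.69 over 5 genes. The methyltransferase *Fbl* had 26.1 and 42.7 FPKM, *Nop56* 42.0 and 65.9 and *Nop58* 21.9 and 38.1. *Nhp2l1* had 21.9 and 30.7 FPKM and *Rrp9* 2.40 and 4.61. The box H/ACA core had a median of -0.89 over 4 genes. There the pseudouridine synthase *Dkc1* had 13.7 and 23.5 FPKM and *Gar1* 7.54 and 12.8, while *Nhp2* (4.32 and 10.7 FPKM, log2 ratio -1.14) and *Nop10* (9.95 and 21.5 FPKM, log2 ratio -1.04) were past 2-fold as deposited.

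The other 3 lists lay nearer to the median of all genes. The 9 assembly factors had a median log2 ratio of -0.30, with *Ruvbl2*, an ATPase of the assembly complex, at 26.9 and 43.1 FPKM and *Znhit3* at 4.89 and 7.94. The 12 Cajal body and nucleolar genes had a median of -0.42. Coilin (*Coil*), the scaffold of the Cajal body, stood at 2.94 and 3.12 FPKM, and *Wrap53*, whose protein brings Cajal body RNAs there, at 1.31 and 1.52, both near equal. The nucleolar chaperones *Npm1* (344 and 568 FPKM) and *Nolc1* (5.29 and 9.92 FPKM) had log2 ratios of -0.72 and -0.79. The 6 processing enzymes had a median of -0.31, with *Dbr1*, which opens intron lariats, at 2.09 and 3.56 FPKM and *Parn*, which trims 3′ ends, at 3.39 and 4.72.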

How the data were processed

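RNA of sorted cells was prepared with the RNeasy micro kit, then amplified to cDNA with NuGEN Ovation RNA-Seq v2, per the labels' protocols, a chemistry that keeps no strand. Reads of a host intron and of the RNA within it cannot be told apart, since most hosts lie on the same strand. How well RNAs as short as the members pass this preparation was not tested. Levels and zeros therefore need not follow the small RNAs themselves. Bowtie 0.12.7, TopHat 1.4.1 and build mm9 are named in the submitters' processing notes, and the deposited tables are labelled as Cufflinks output, whose version was not given in the sources used here. The authors' deposited FPKM is given for each RefSeq transcript row with a status, per the file headers. The deposited coverage, a signal per base per the file headers, is FPKM times a constant, so depth is unknown and no interval is given. Status was LOWDATA in 6 member rows in both libraries. An exact 0 can be a failed estimate, so such rows are called listed at 0.

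Positions had 1 added to each start. A row was measured if either FPKM was at least 1, differences are log2 of (FPKM + 1) in the positive over the negative library, and rows were described at 2-fold, with no test because there is 1 library per group. Genes were summed by symbol. Hosts are the shortest listed span of at least 300 bases that holds the row. Sequences came from GENCODE M21 (GRCm38) by symbol for 112 symbols, all but 2 of them, with no position carried between builds. Named members were the 10 highest by mean FPKM, the 8 highest and 8 lowest ratios of rows above 0 in both with 200 aligned bases (coverage times length) in each, the 6 highest at 0 in each library, all Scarna rows and some chosen by name, and *Snora3*, *Snora31*, *Snora52*, *Snora68* and *Snora70* as well as other rows outside these were named after their values were seen. The members and lists were chosen with earlier results of these data known. Python 3.11.15, pandas 2.3.3 and numpy 2.4.6 were used. Alternatives were other pseudocounts, scalings, filters on level, length, status and aligned bases, and summing by symbol. Of 43 listed protein genes 36 were present by symbol.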

Additional observations from a re-analysis of the deposited data

How the results depend on the processing

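No paired analysis was possible because each group has 1 library, and for the same reason no library could be left out. Rows above 0 in the positive and negative library numbered 33 and 34 at 100 bases or more, 47 in the negative library at 75 bases or more, and 38 and 41 among rows at 5 times or more the lowest value of like length, a setting added after the data were seen. Rows higher and lower numbered 10 and 9 at 75 bases or more, 4 and 4 at 100 bases or more, 6 and 8 with at least 200 aligned bases in each library, and 5 and 9 at 5 times or more the lowest value. Fewer rows enter under each of these. Aligned bases here are FPKM times length and a constant, so a minimum of them filters on level and not on reads. Asked of each library, it leaves out every row at 0 in 1 library. The median log2 ratio of members above 0 in both was 0.36 after rescaling to equal sums, 0.25 to equal medians, 0.22 to equal upper quartiles, and -0.23 at 5 times or more the lowest value. The summed FPKM of the positive library was 124% of the negative after rescaling to equal sums. Protein genes 2-fold lower numbered 0 with a pseudocount of 5, with equal sums and with equal medians, with medians of -0.30, -0.077 and -0.15. The host median was -0.49 with a pseudocount of 5, -0.19 with equal sums and -0.27 with equal medians, and in both latter scalings 1 host was higher and 0 lower. The remaining settings kept counts of members within 1.5 times the value as deposited. Short rows are listed at 0 or at high values, so a 2-fold difference under 100 bases rests on an unknown and possibly small number of reads.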

Other observations

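Besides the members, 4 rows typed as small nucleolar RNA in RefSeq carry other symbols. *AF357355* stood at 2646 FPKM in GFP-positive cells and was listed at 0 in GFP-negative cells. *Gm12238*, of 124 bases, stood at 51.8 and 22.4 FPKM, *LOC100302567*, of 94 bases, at 20.5 and 19.4, and *AF357359*, of 30 bases, was listed at 0 in both. The members *Snora24*, *Snora26*, *Snord1a* and *Snord7* had a value above 0 but under 1 FPKM in at least 1 library, and all 4 had status LOWDATA.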
